A study of Homo sapiens with 4 samples.

Results

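The HOXA genes of the homeobox cluster on chromosome 7 and their partner gene MEIS1 were followed in the MOLM-13 line of human acute myeloid leukaemia, which carries the KMT2A-MLLT3 (MLL-AF9) fusion, after CRISPR-Cas9 targeting of KAT6A. The 10 genes, HOXA3, HOXA4, HOXA5, HOXA6, HOXA7, HOXA9, HOXA10, HOXA11, HOXA13 and MEIS1, were taken by exact symbol from a table of 27800 symbols. In the sgKAT6A group, 2 libraries were made from MOLM-13 cells transduced with lentivirus that carried CRISPR-Cas9 and a guide against KAT6A, a histone lysine acetyltransferase also called MOZ. In the EV group, 2 libraries came from MOLM-13 cells given the CRISPR-Cas9 lentivirus labelled EV. Both groups therefore shared the cell line, its KMT2A fusion and lentiviral delivery. The sources used here do not give the guide sequence, the time of harvest, or whether cells were a pool or a clone. Neither do the labels say whether libraries of a group came from separate cultures, so the p-values reflect the spread among these 4 libraries, which may be technical.

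HOX genes encode homeodomain transcription factors that set position along the body axis, and they lie in clusters whose gene order follows their order of expression in the embryo. In blood, the HOXA genes are active in stem and progenitor cells and are normally shut down as cells mature. KMT2A fusion proteins keep the HOXA genes and MEIS1 active in leukaemia, where HOXA9 and MEIS1 bind DNA together with PBX proteins and block differentiation. MEIS1 and the PBX proteins belong to the TALE class of homeodomain proteins, which carry an extended loop in the homeodomain. KAT6A belongs to an acetyltransferase complex that is known to act at HOX genes. The comparison addressed whether the transcripts of these genes differed after KAT6A targeting.

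In GENCODE 29 on GRCh38, the stretch from HOXA2 to HOXA13 spans 99.8 kb of chromosome 7, positions 27100354 to 27200106, with each of these HOXA genes on the minus strand. HOXA9 lies at 27162435 to 27175180 and HOXA10 at 27170591 to 27180261, so the annotated spans of these neighbours overlap, and the span of HOXA3 covers HOXA4, HOXA5 and HOXA6. MEIS1 lies on the plus strand of chromosome 2 at 66433452 to 66573869. RefSeq promoter windows of 300 bases (250 before and 50 after a transcript start, build GRCh38.p14) were found for 9 of the 10 genes, all except HOXA5. Windows are shown for the 2 HOXA genes with the highest levels, for MEIS1, and for HOXA4, the gene with the lowest level. Capitals mark matches to any of 4 motifs on either strand: TATAAA as the core promoter box, CCAAT as the site class of the factor NF-Y, TGACAG as a MEIS-type site and TGATNNAT as a joint HOX-PBX site. The windows are chr7:27165488-27165787 minus strand for HOXA9, chr7:27179812-27180111 minus strand for HOXA10, chr2:66434875-66435174 plus strand for MEIS1 and chr7:27130708-27131007 minus strand for HOXA4.
HOXA9: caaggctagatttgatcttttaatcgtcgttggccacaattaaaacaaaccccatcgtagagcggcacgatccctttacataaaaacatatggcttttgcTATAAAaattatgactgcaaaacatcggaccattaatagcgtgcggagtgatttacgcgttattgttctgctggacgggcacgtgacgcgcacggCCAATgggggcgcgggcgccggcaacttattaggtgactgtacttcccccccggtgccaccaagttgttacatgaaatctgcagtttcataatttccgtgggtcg
HOXA10: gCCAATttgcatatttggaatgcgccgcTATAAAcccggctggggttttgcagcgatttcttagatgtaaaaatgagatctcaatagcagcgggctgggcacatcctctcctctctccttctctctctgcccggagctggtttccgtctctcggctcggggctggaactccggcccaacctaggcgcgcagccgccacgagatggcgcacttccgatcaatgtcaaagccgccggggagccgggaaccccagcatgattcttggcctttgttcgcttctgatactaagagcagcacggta
MEIS1: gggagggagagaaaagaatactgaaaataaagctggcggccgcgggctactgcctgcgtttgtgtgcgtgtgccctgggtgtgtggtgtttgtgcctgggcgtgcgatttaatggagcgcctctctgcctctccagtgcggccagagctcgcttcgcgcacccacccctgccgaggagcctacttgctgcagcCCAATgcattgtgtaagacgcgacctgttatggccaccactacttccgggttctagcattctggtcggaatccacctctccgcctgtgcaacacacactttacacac
HOXA4: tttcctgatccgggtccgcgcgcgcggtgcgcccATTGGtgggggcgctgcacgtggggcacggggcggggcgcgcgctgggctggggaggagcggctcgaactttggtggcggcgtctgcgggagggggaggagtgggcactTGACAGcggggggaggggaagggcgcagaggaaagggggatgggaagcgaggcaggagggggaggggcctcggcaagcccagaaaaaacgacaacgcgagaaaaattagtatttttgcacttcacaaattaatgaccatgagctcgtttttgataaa

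Read at the outermost start of each of the 9 genes, the NF-Y motif was present in 8 windows, every one but that of HOXA11, against 34.6% of all 35116 RefSeq windows of this length. The TATAAA motif was present in 3 windows, those of HOXA3, HOXA9 and HOXA10, against 11.5% of all windows. In HOXA9 it began at position -150 from the start, and in HOXA10 at -222, both on the strand of the gene. In HOXA3 it began at -29 on the opposite strand. Whether any of these matches acts as a core promoter box was not tested. The MEIS motif was in 2 windows, those of HOXA4 and HOXA13, against 15.8% of all windows. In HOXA13 it began at position 16, after the start. No relation between motifs and transcript levels was tested. No window held the HOX-PBX motif, which 7.40% of all windows held. GC content ran from 48.0% in the HOXA9 window to 76.3% in the HOXA13 window, with a median of 58.7% over all windows. The shares over all windows count every annotated start, including several of 1 gene, so they are not the same measure as 1 window per gene. HOXA3 had 7 windows, and those at its other starts held none of the motifs. HOXA10 had 2 windows, and the other one also held the NF-Y motif and the TATAAA motif, both on the opposite strand. A match is a description of these letters and not a binding site.

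The order of transcript levels was the same in all 4 libraries. From highest to lowest it was HOXA9, HOXA10, MEIS1, HOXA7, HOXA11, HOXA6, HOXA5, HOXA3, HOXA13 and HOXA4. Levels are given as TPM, a measure per transcript length in which each library sums to 1000000, so genes can be set side by side. Between neighbours in this order, the ranges over the 4 libraries overlapped for MEIS1 and HOXA7, HOXA7 and HOXA11, HOXA5 and HOXA3, and HOXA3 and HOXA13. They were apart for the other neighbours. HOXA9 stood at 42.8 to 54.7 TPM, above HOXA10 at 15.2 to 17.5 TPM, and HOXA4 stood at 0.352 to 0.554 TPM. Among the 10788 protein-coding genes tested (mean level 1 TPM or more), the HOXA9 level exceeded 79.7% and 82.4% of genes in sgKAT6A cells, against 83.5% and 82.1% in EV cells. TPM keeps no read depth, so no counting error could be given, and values near or below 1 TPM are of unknown precision.

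**Figure D1:**
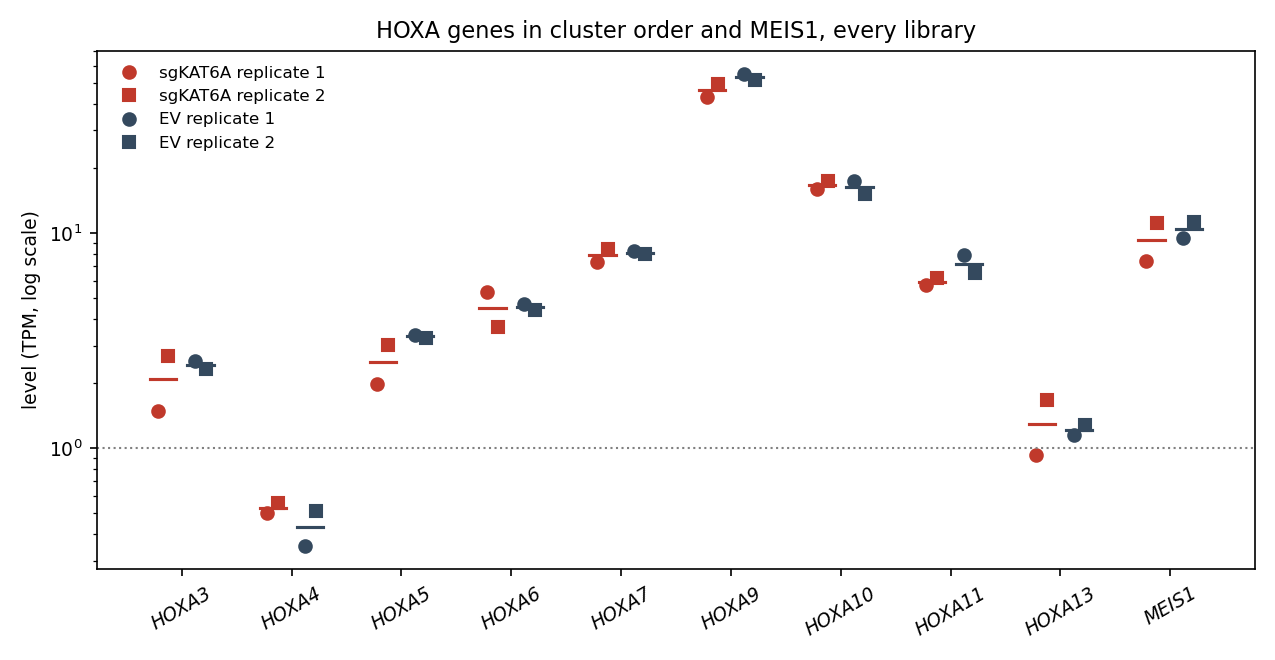
Transcript level (TPM, log scale) of the 9 HOXA genes in cluster order and of MEIS1, with each library as a point (circles replicate 1, squares replicate 2) and the mean of 2 libraries as a bar, sgKAT6A left of EV; the dotted line marks 1 TPM. HOXA9 lay at 42.8 to 54.7 TPM in every library and HOXA4 stayed below 1 TPM.

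Along the cluster, the level was higher at each gene in turn from HOXA4 to HOXA9, and lower at each in turn from HOXA10 to HOXA13. HOXA9 and HOXA10 together held 71.7% and 71.9% of the summed TPM of the 9 HOXA genes in sgKAT6A cells, against 71.9% and 71.8% in EV cells. That joint share hardly differed between libraries, while the sum itself ranged more widely. It was 82.17 and 93.17 TPM in the sgKAT6A libraries, against 100.3 and 93.14 TPM in the EV libraries. The groups overlapped in the sum, and sgKAT6A replicate 1 was the low library. HOXA2, next to the members at the early end of the cluster, did not exceed 0.268 TPM in any library.

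**Figure D2:**
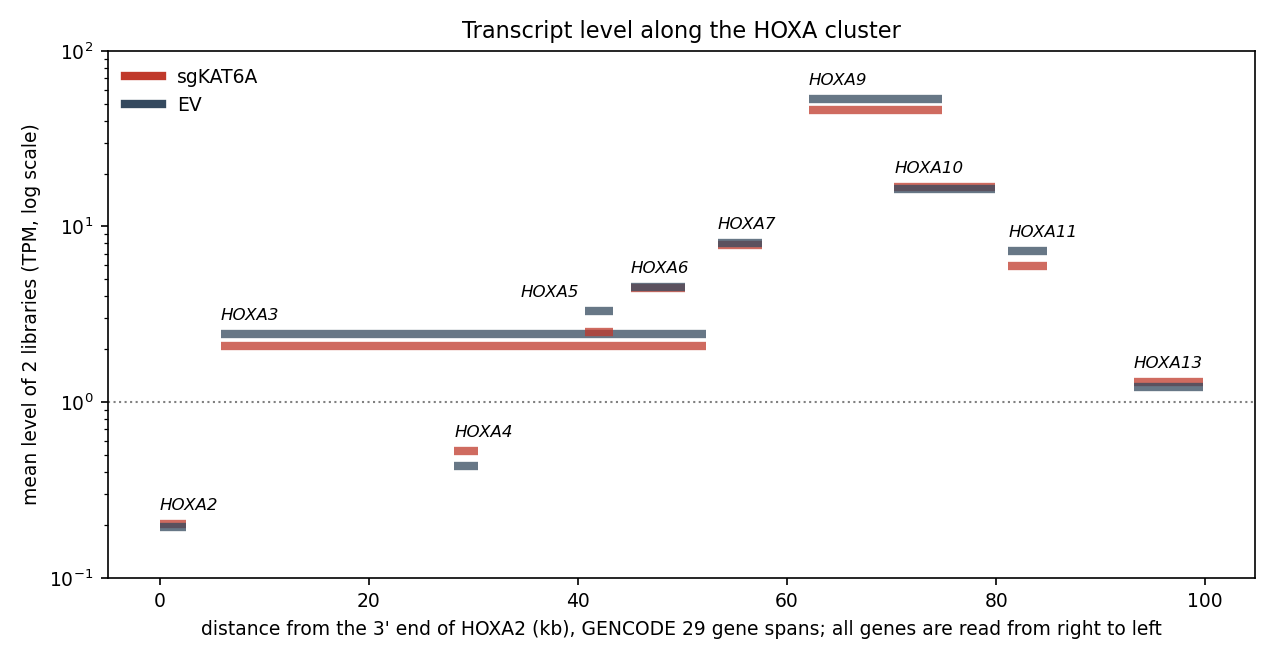
Mean TPM of the 2 sgKAT6A and the 2 EV libraries (log scale) drawn over the GENCODE 29 span of each gene, as distance in kb from the 3' end of HOXA2. HOXA9 and HOXA10 form the peak of the profile in both groups, and HOXA2 and HOXA4 lie below 1 TPM.

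None of the HOXA genes nor MEIS1 passed the test between sgKAT6A and EV. Of the 10 genes, 9 averaged 1 TPM or more over the 4 libraries and entered the test, and HOXA4 did not. By limma on log2(TPM + 1) with Benjamini-Hochberg adjustment over all 12603 genes tested, 0 of the 9 had an adjusted p under 0.05, against 0% of all genes. At an unadjusted p under 0.05 the count was 0 of 9, against 459 genes or 3.64% of all tested. Their adjusted p-values ran from 0.784 to 0.975. The median log2 difference of the 9 was -0.16, beside -0.02 over all genes tested, and 7 of the 9 values were negative. Without sgKAT6A replicate 1 the median of the 9 was 0.05, so 1 library set its direction. The targeted transcript, KAT6A, was at 12.2 and 10.8 TPM in sgKAT6A libraries and 16.2 and 16.7 TPM in EV libraries, a log2 difference of -0.48 (adjusted p = 0.784 by limma) that need not measure loss of the protein.

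HOXA5, HOXA9 and HOXA11 were the 3 of 9 tested genes in which each sgKAT6A library lay below each EV library, and the reverse held for 0 of 9. Of the protein-coding genes tested, 25.1% separated in that way and 13.5% in the reverse, so 3 of 9 is near the background. With median-of-ratios scaling the count was 1, HOXA5 alone. Protein-coding genes held 77.9% and 78.1% of the TPM in sgKAT6A libraries, against 81.2% and 81.6% in EV libraries, without overlap. With values rescaled to protein-coding genes only, HOXA5 and HOXA11 stayed apart between the groups and HOXA9 overlapped. Leaving out sgKAT6A replicate 2 gave 7 lower and 1 higher, and leaving out sgKAT6A replicate 1 gave 4 lower and 4 higher, where a single library stood for the sgKAT6A group. Leaving out EV replicate 1 gave 4 lower and 1 higher, with a single EV library. Shares over all genes were not computed for these alternatives, so their counts cannot be set against the 25.1% and 13.5%. In bulk RNA, fewer cells with a transcript and less transcript per cell cannot be told apart.

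HOXA9, the Abdominal-B type factor on which KMT2A-rearranged leukaemia cells commonly depend, was at 42.8 and 49.5 TPM in sgKAT6A libraries, against 54.7 and 51.7 TPM in EV libraries. The sgKAT6A values were the lower ones, without overlap, and the gap between the sgKAT6A libraries (0.21 on the log2 scale) was as large as the difference between the groups. On the log2 scale HOXA9 differed by -0.21 ± 0.13 (SE; 95% interval -0.58 to 0.17; adjusted p = 0.784 by limma). On this scale the interval covers ratios of sgKAT6A to EV from 0.67 to 1.12, which include both a fall and no change. The HOXA9 difference was -0.10 without sgKAT6A replicate 1 and -0.31 without sgKAT6A replicate 2. HOXA11, a patterning factor of limb and kidney development, was at 5.71 and 6.19 TPM in sgKAT6A libraries and 7.90 and 6.51 TPM in EV libraries. Its log2 difference was -0.24 ± 0.16 (SE; interval -0.68 to 0.21), and the EV libraries lay farther apart than the sgKAT6A libraries. It was -0.11 without EV replicate 1 and -0.36 without EV replicate 2. HOXA5, which has roles in lung development and in myeloid differentiation, was at 1.98 and 3.03 TPM in sgKAT6A libraries and 3.37 and 3.25 TPM in EV libraries. sgKAT6A replicate 1 was the low library, and the difference of -0.31 ± 0.23 (SE; interval -0.95 to 0.33) was -0.095 without it and -0.53 without sgKAT6A replicate 2. These 3 genes kept a negative sign under every alternative that gave them a value.

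For the other genes at the late end of the cluster, the groups overlapped. HOXA10, a neighbour of HOXA9 that is also active in early myeloid cells, was at 16.1 and 17.5 TPM in sgKAT6A libraries and 17.4 and 15.2 TPM in EV libraries. Its log2 difference of 0.04 had a 95% interval of -0.33 to 0.42. HOXA13, the last gene of the cluster and a factor of distal limb and genital development, was at 0.926 and 1.67 TPM in sgKAT6A libraries and 1.15 and 1.28 TPM in EV libraries. Both extremes of HOXA13 were sgKAT6A libraries, and its difference was 0.04 ± 0.29 (SE).

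Among the early and central HOXA genes, the groups also overlapped. HOXA7, another gene that KMT2A fusions are known to activate, was at 7.33 and 8.42 TPM in sgKAT6A libraries and 8.25 and 7.95 TPM in EV libraries. Its log2 difference was -0.04, with an interval of -0.43 to 0.35. HOXA6 was at 5.34 and 3.64 TPM in sgKAT6A libraries and 4.67 and 4.39 TPM in EV libraries, so its highest and its lowest value were both in sgKAT6A libraries. HOXA3, a patterning factor of the neck and pharynx, was at 1.49 and 2.69 TPM in sgKAT6A libraries and 2.53 and 2.34 TPM in EV libraries. Here too the sgKAT6A libraries were the extremes, and the difference was -0.18 ± 0.28 (SE). HOXA4 was listed at 0.498 and 0.554 TPM in sgKAT6A libraries and 0.352 and 0.509 TPM in EV libraries, below the level at which genes were tested.

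MEIS1, the TALE cofactor that speeds HOXA9-driven leukaemia in mice, was at 7.41 and 11.1 TPM in sgKAT6A libraries and 9.46 and 11.2 TPM in EV libraries. sgKAT6A replicate 1 was the low library, while sgKAT6A replicate 2 lay within the EV range. MEIS1 differed by -0.16 ± 0.24 (SE) on the log2 scale, interval -0.82 to 0.49 (adjusted p = 0.854 by limma), and without sgKAT6A replicate 1 it was 0.10. Within replicate number 1 the MEIS1 difference was -0.32, and within number 2 it was -0.01.

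**Figure D3:**
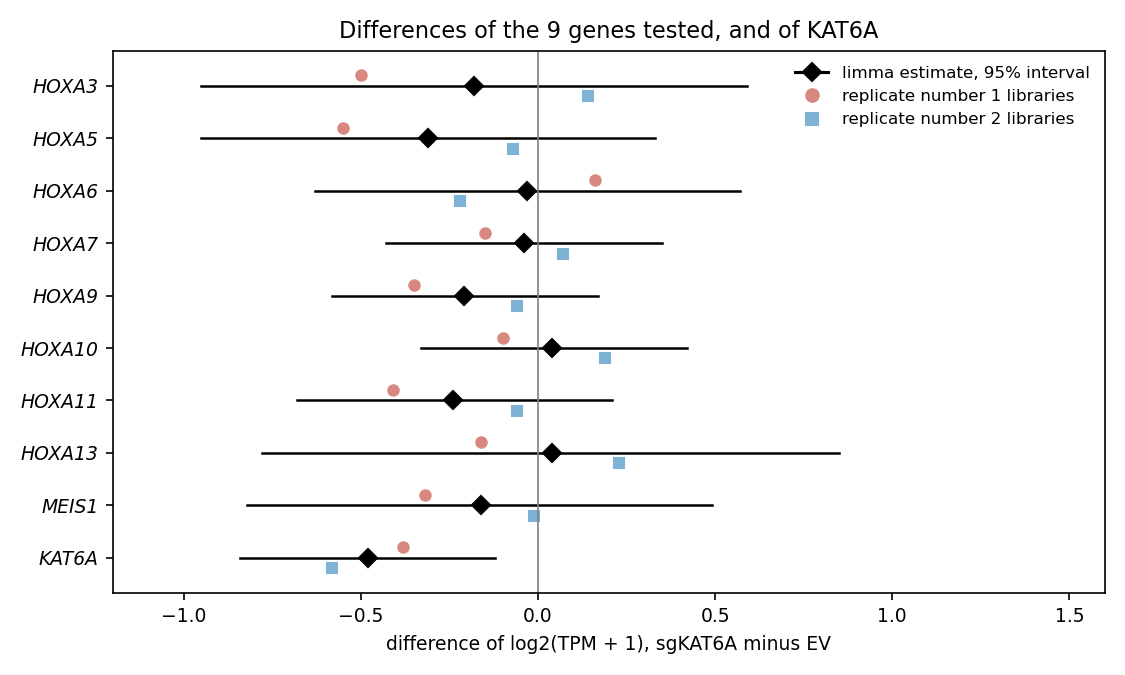
Difference of log2(TPM + 1), sgKAT6A minus EV, for the 9 genes tested and for KAT6A, as the limma estimate with its 95% interval (diamonds and lines, 2 libraries per group) and as the difference within each replicate number (circles for number 1, squares for number 2). All 9 intervals include 0, and that of KAT6A runs from -0.84 to -0.12.

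Low values gathered in a single library. sgKAT6A replicate 1 was the lowest of the 4 libraries for HOXA3, HOXA5, HOXA7, HOXA9, HOXA11, HOXA13 and MEIS1, 7 of the 10 genes, whereas it was the lowest for 15.0% of protein-coding genes tested. This pattern was noticed after the values were seen, and neighbours in a cluster are not independent, so it is a description. Relative to each gene's own mean of the 4 libraries, the log2 deviation in sgKAT6A replicate 1 was -0.37 for HOXA3 and HOXA5, -0.34 for MEIS1 and -0.20 for HOXA9. HOXA6 departed from it, with a deviation of 0.21 in the same library. The median absolute gap between the sgKAT6A libraries was 0.44 over the 9 genes, beside 0.23 over protein-coding genes tested, and between the EV libraries it was 0.08, beside 0.18. Within replicate number 1, 8 of the 10 genes were lower in sgKAT6A, and within number 2, 5 of the 10 were. Only HOXA5, HOXA9, HOXA11 and MEIS1 were lower within both numbers, and only HOXA4 was higher within both. Shares of all genes in these directions were not computed, so the counts within replicate numbers have no background beside them.

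**Figure D4:**
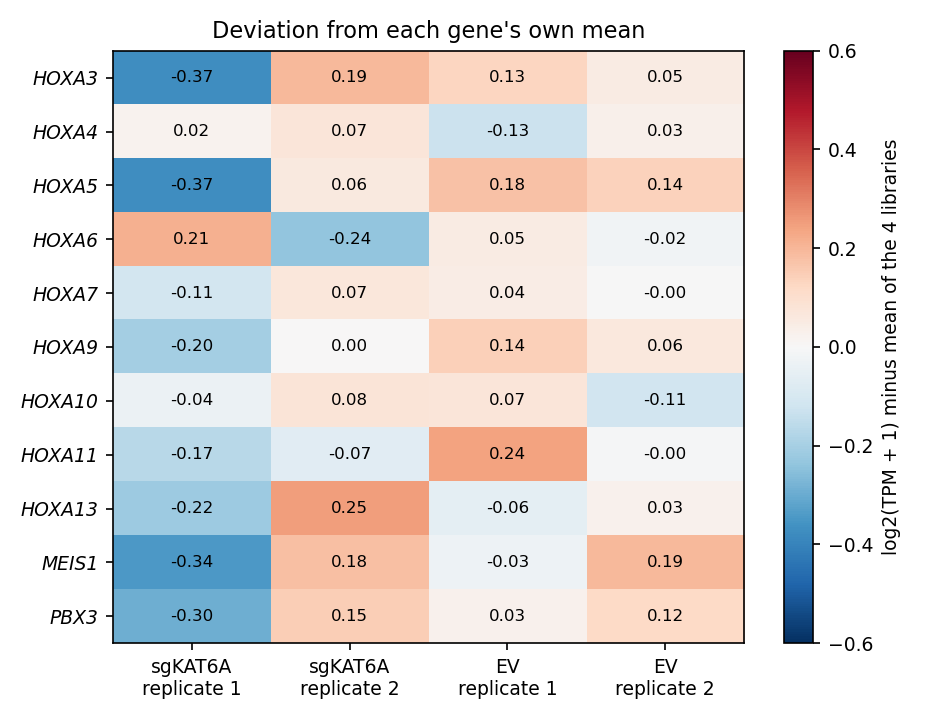
Deviation of log2(TPM + 1) in each library from the gene's mean of the 4 libraries, for the 10 genes and for PBX3 (colour and printed value, blue below and red above the mean), sgKAT6A libraries on the left. The sgKAT6A replicate 1 column is the lowest of its row for 7 of the 10 genes and for PBX3.

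Ratios between genes within a library do not change when all its values are multiplied by 1 factor, whereas quantile normalization can change them. HOXA9 was 2.65 and 2.83 times HOXA10 in the sgKAT6A libraries, against 3.15 and 3.40 times in the EV libraries, without overlap. The log2 ratio differed by -0.26, with p = 0.333 by an exact two-sided permutation test, which is the smallest value that 2 against 2 libraries can give. Of the 36 ratios between the 9 genes, 12, counted in both directions, did not overlap between the groups. This one was picked after they were seen. No share over other gene pairs in both directions was computed, so the 12 of 36 has no background beside it. The ratio of HOXA9 to a protein-coding gene was lower in sgKAT6A without overlap for 33.7% of 10765 genes, so a shift of this kind was common. HOXA9 was 5.77 and 4.44 times MEIS1 in sgKAT6A and 5.78 and 4.60 times MEIS1 in EV, which followed the replicate number in both groups.

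Whether reads from several of these genes were assigned to the right gene could not be checked. The protocols in the labels do not say whether the libraries kept strand, and antisense transcripts share exonic bases with most of the cluster in GENCODE 29. HOXA-AS3 covers 62.5% of the exonic bases of HOXA7 and 39.3% of those of HOXA6, and was at 0.806 and 1.10 TPM in sgKAT6A libraries and 0.615 and 0.782 TPM in EV libraries. HOXA11-AS covers 31.1% of HOXA11 and was at 5.35 and 6.80 TPM in sgKAT6A libraries and 5.75 and 4.45 TPM in EV libraries, close to the level of HOXA11. HOXA10-AS, which covers 13.9% of HOXA9 and 16.4% of HOXA10, was at 9.04 and 8.98 TPM in sgKAT6A libraries and 12.5 and 10.9 TPM in EV libraries. HOXA10-AS was lower in sgKAT6A without overlap, with a log2 difference of -0.34 ± 0.14 (SE; adjusted p = 0.784 by limma). The HOXA-AS3 groups did not overlap either, but in the opposite direction, at a mean below 1 TPM and without a test. The HOXA11-AS groups overlapped. Of all genes tested, 23.2% were lower and 14.4% higher without overlap. The readthrough symbol HOXA10-HOXA9 was listed at 0 in every library.

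Transcripts of TALE genes, some of which encode proteins that bind DNA with HOX proteins, were present at unequal levels, and none passed the test. Of 10 genes in this list, 6 were tested, with 1 lower and 2 higher in sgKAT6A without overlap (23.2% and 14.4% of all genes tested) and a median log2 difference of 0.06. None of the 6 had an unadjusted p under 0.05. PBX3, the PBX protein most closely tied to HOXA9 in leukaemia, was at 23.9 and 32.9 TPM in sgKAT6A libraries and 30.1 and 32.2 TPM in EV libraries. Like MEIS1, PBX3 was lowest in sgKAT6A replicate 1, and the PBX3 to MEIS1 ratio stayed between 2.86 and 3.23 over the 4 libraries. PBX2, a widely expressed relative, was at 52.1 and 66.9 TPM in sgKAT6A libraries and 46.2 and 60.6 TPM in EV libraries, again with overlap. MEIS3 had higher values in sgKAT6A, 0.922 and 2.27 TPM, against 0.475 and 0.610 TPM in EV (log2 difference 0.70 ± 0.38 SE, adjusted p = 0.784 by limma). TGIF1, a TALE repressor, was at 25.7 and 24.2 TPM in sgKAT6A libraries and 22.0 and 22.5 TPM in EV libraries. Its relative TGIF2 had lower values, 15.8 and 16.2 TPM in sgKAT6A libraries, against 18.5 and 18.9 TPM in EV libraries. PKNOX1 was at 4.22 and 2.98 TPM in sgKAT6A libraries and 3.91 and 3.43 TPM in EV libraries. The genes of this list that were not tested, PBX4, PKNOX2 and MEIS2 among them, did not reach a mean of 1 TPM.

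Outside the HOXA cluster, HOX transcripts were listed at or near 0. All 28 genes listed from the HOXB, HOXC and HOXD clusters had symbols in the table, and none reached a mean of 1 TPM. Of these, 19 were listed at 0 in every library, and the highest value was 0.225 TPM, for HOXB7 in EV replicate 2. By comparison, HOXA9 was at 42.8 TPM or more in every library.

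Among genes known to be bound or regulated by HOXA9 and MEIS1, none passed the test. Of 21 such genes, 15 were tested, and 4 were lower and 0 higher without overlap (23.2% and 14.4% of all genes tested). The median log2 difference was -0.07, beside -0.02 over all genes tested, and 1 of the 15 had an unadjusted p under 0.05. FLT3, a receptor tyrosine kinase of progenitors, was at 46.2 and 42.9 TPM in sgKAT6A libraries, against 61.0 and 59.4 TPM in EV libraries, a log2 difference of -0.43 ± 0.12 (SE; adjusted p = 0.784 by limma). BCL2, the survival factor, was at 23.9 and 18.7 TPM in sgKAT6A libraries and 33.3 and 25.2 TPM in EV libraries. MYB, a transcription factor of progenitor self-renewal, was at 123 and 94.0 TPM in sgKAT6A libraries and 141 and 127 TPM in EV libraries. GFI1, a repressor needed for granulocyte development, had a log2 difference of -0.32 ± 0.13 (SE). These 4 genes were named because they had the smallest unadjusted p by limma among the 15, and they are the 4 without overlap. In them sgKAT6A replicate 2 was the lowest library, whereas HOXA9 and MEIS1 were lowest in sgKAT6A replicate 1. The lowest library of the other genes tested in this list is not reported here, so the contrast does not describe the list.

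Chromatin regulators of HOXA transcription, KAT6A among them, also gave 0 calls in 19 genes tested of 21 listed. Without overlap, 5 were lower, KAT6A included, and 1 higher in sgKAT6A (23.2% and 14.4% of all genes tested), and the median log2 difference was -0.09. KAT6A alone had an unadjusted p under 0.05. MEN1, which encodes menin, the adaptor that ties KMT2A to chromatin at HOXA genes, was at 28.1 and 22.1 TPM in sgKAT6A libraries and 33.7 and 28.5 TPM in EV libraries. EZH2, the Polycomb methyltransferase that silences HOX genes in other tissues, was at 26.6 and 26.6 TPM in sgKAT6A libraries and 32.5 and 33.1 TPM in EV libraries. SUZ12, its partner subunit, was at 31.0 and 28.9 TPM in sgKAT6A libraries and 31.5 and 34.4 TPM in EV libraries. Adjusted p-values of these 3 genes by limma ran from 0.784 to 0.792.

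The protein-coding genes whose pattern over the 4 libraries came closest to that of HOXA9 were RPP30, CENPQ and BARD1, among 10779 compared. Likeness was the root mean square difference between mean-centred log2 values, which was 0.0178 for RPP30, 0.018 for CENPQ and 0.0228 for BARD1. CENPQ, a kinetochore protein, was at 8.01 and 9.21 TPM in sgKAT6A libraries and 10.2 and 9.48 TPM in EV libraries. Closest to MEIS1 were LRRC20 (0.0165), IFT80 (0.0178) and DBNDD2 (0.0208). DBNDD2 was at 28.4 and 43.3 TPM in sgKAT6A libraries and 36.3 and 43.0 TPM in EV libraries. Over 4 libraries this likeness is a description, and no correlation was computed.

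The libraries matched a myeloid line in their markers. SPI1, the myeloid master factor, was at 334 to 519 TPM, CD33 at 99.2 to 115 TPM and LYZ at 7060 to 10975 TPM, while CD34 was listed at 0. The 11 myeloid identity genes, mostly LYZ, summed to 11926 and 10763 TPM in sgKAT6A and to 7887 and 9156 TPM in EV, higher in sgKAT6A without overlap. Without LYZ the sums were 950.5 and 1262 TPM in sgKAT6A and 827.2 and 1088 TPM in EV, and the groups overlapped. Of the 9 genes tested, LYZ was the 1 that was higher without overlap, near the 14.4% of all genes tested. Markers of mature monocytes, and some other markers, followed the replicate number. CD14, a co-receptor for bacterial lipopolysaccharide, was at 3.04 and 54.3 TPM in sgKAT6A libraries and 1.08 and 29.3 TPM in EV libraries. ITGAM, an integrin subunit of myeloid cells, was at 12.3 and 52.1 TPM in sgKAT6A libraries and 3.74 and 21.5 TPM in EV libraries. CSF1R, the receptor for macrophage colony-stimulating factor, was at 22.0 and 63.0 TPM in sgKAT6A libraries and 10.2 and 31.8 TPM in EV libraries. All 3 were lower in replicate 1 of each group, and higher in sgKAT6A within each replicate number. The same held for PTPRC, SPI1 and CEBPA of this list and for NKG7 and PECAM1 of the lists below. It did not hold for CD33, MPO and LYZ. The part of these markers in the results was not tested. Globin transcripts HBB, HBA1 and HBA2 were present, with the 8 erythroid and megakaryocyte genes at a sum of 389 and 244 TPM in sgKAT6A and 146 and 407 TPM in EV. KLF1 and GATA1 stayed at or below 0.425 TPM and PF4 was listed at 0. Lymphoid genes (8, mostly NKG7) summed to 139 and 231 TPM in sgKAT6A and 110 and 175 TPM in EV, and stromal, epithelial and endothelial genes (8, mostly PECAM1) to 55.9 and 83.4 TPM and to 36.2 and 60.6 TPM. All 4 sums over whole lists had their lowest value in EV replicate 1, and their part in the levels of the HOXA genes and MEIS1 was not tested. The 18S ribosomal RNA symbol RNA18SN5 ranged from 10401 to 13751 TPM except in sgKAT6A replicate 2, which had 340 TPM, and its part was not tested either.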

How the data were processed

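Expression was measured by RNA sequencing of total RNA from 4 MOLM-13 libraries, 2 sgKAT6A and 2 EV, grouped by their titles. The authors deposited TPM values per gene symbol, and the submitters' processing notes name Salmon and the build hg38. Salmon's version, the transcript annotation and filters: not given in the sources used here. Since TPM holds no read depth, counts were not modelled. Every library has the same TPM total, so a shift in any abundant RNA shifts the values of the rest.

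Values were taken as log2(TPM + 1), which understates changes of low genes. The 12603 genes averaging 1 TPM or more were fitted with limma 3.58.1 in R 4.3.3 (linear model, variances moderated along a mean-variance trend, with 2 residual and 1.98 prior degrees of freedom). The tests were two-sided with Benjamini-Hochberg adjustment over all genes tested and a threshold of 0.05. A run on simulated data checked that the fit returns known changes with their sign and size. It was not used to show that a change would be detected at the spread of these libraries. Gene classes came from RefSeq records (12364 of 12603 matched by symbol or unambiguous synonym), gene positions from GENCODE 29 on GRCh38 and promoter windows from RefSeq on GRCh38.p14. The genes and lists were chosen with earlier results of these data known. Named were every member, HOXA2, KAT6A, every TALE partner tested, up to 4 genes with the smallest unadjusted p from each other list, and the 3 genes most like HOXA9 and MEIS1. HOXA antisense and readthrough transcripts, marker genes and RNA18SN5 were named outside this rule, after their values were seen. Some genes that the rule or the lists cover are not reported here. Alternatives, 13 in all, were pseudocounts of 0.1 and 5, filters of none and of a 5 TPM mean, median-of-ratios and quantile scaling, protein-coding genes only, no trend, a replicate block and each library left out. Figures were drawn with matplotlib 3.10.9.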

Additional observations from a re-analysis of the deposited data

How the results depend on the processing

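Under all 13 alternatives, 0 of the members tested and 0 genes of the other lists had an adjusted p under 0.05 by limma. KAT6A stayed negative, and no scaling moved the median of all genes by over 0.1. The median difference of the members lay between -0.28 and 0.050 with 1 library left out. The number lower without overlap was 1 with median-of-ratios scaling and 3 to 7 with 1 library left out. The number higher was 0 to 4 with 1 library left out, where 1 group then had a single library. No shares over all genes were computed for these settings, so these counts have no background beside them. Signs turned only for genes with small differences: HOXA6 (0.022) and HOXA7 (0.017) with protein-coding genes only, HOXA13 (-0.099) with quantile normalization, and, with 1 library left out, HOXA3 (-0.46 to 0.10), HOXA6 (-0.25 to 0.20), HOXA7 (-0.13 to 0.050), HOXA10 (-0.046 to 0.14), HOXA13 (-0.20 to 0.27) and MEIS1 (-0.43 to 0.10). A lone library was assumed to vary like those of the other group. With a mean of at least 5 TPM, HOXA3, HOXA5, HOXA6 and HOXA13 gave no value. HOXA4 gave none except without a filter.

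When the replicate number entered as a block (replicate block), 15 genes had an adjusted p under 0.05 by limma, none of them a member, although the labels do not say what the numbers mark. Same-numbered libraries deviated together (r = 0.45 across genes, which are not independent replicates). The cause of the higher count was not tested.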
